A study of Mus musculus with 16 samples.

Results

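Oxidative phosphorylation is carried out by 5 multi-subunit complexes of the inner mitochondrial membrane, and the 82 genes described here encode subunits of them. They were taken by symbol from the platform annotation, leaving out symbols that end in Rik or -ps. The rule took Nduf a, b, c, s or v with a number as the whole symbol, and Sdha to Sdhd. It also took all symbols that begin with Uqcr, Cox4 to Cox8 or Atp5. The members are 82 of the 19572 probe sets tested, with 1 probe set per gene. Complex I had 35 members, complex II 4, complex III 8, complex IV 18 and complex V 17. The rule uses names alone and no measured value. A stem can take in genes that are not subunits in the strict sense, such as Cox7a2l, which acts in supercomplexes of complexes III and IV. Ndufa4 is counted with complex I by its name, but its protein is also known as part of cytochrome c oxidase.

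Complexes I and II pass electrons from NADH and succinate to ubiquinone, complex III passes them on to cytochrome c, and complex IV, cytochrome c oxidase, passes them to oxygen. Complexes I, III and IV pump protons, and complex V, the ATP synthase, uses the gradient to make ATP. Olfactory sensory neurons spend ATP on ion pumping and on odour transduction in their cilia, and several complex IV subunits exist as isoforms made in different tissues.

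The data were log2 expression values from 16 Clariom S mouse arrays of RNA from sorted cells of dissociated olfactory mucosa. All mice carried S100a5-tauGFP, a fluorescent reporter under the control of S100a5, which encodes a calcium-binding protein made by active olfactory sensory neurons. The zygosity was not given in the sources used here. The 24 mice, of both sexes and 7 to 12 weeks old, were each housed for 40 h in a chamber with clean air at 3.1 L/min. From 26 h on, they received pulses of 10 s at 20 min intervals. The pulse was filtered air in the vehicle groups and citrus accord at 100 percent in the citrus groups. GFP+ and GFP- cells were then sorted from the tissue of each stimulus, which gave 4 groups (vehicle GFP+, vehicle GFP-, citrus GFP+ and citrus GFP-) of 4 arrays. Each array held the cells of 3 mice pooled, so p-values measure the spread between pools. Because the gate was set by the reporter, a GFP- array can hold neurons with little S100a5 as well as cells that are not neurons.

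Arrays correlated at 0.985 to 0.992 within groups. The gate itself was checked with S100a5, which was higher in GFP+ than GFP- cells, by 1.91 ± 0.13 (SE) with vehicle and 1.88 ± 0.13 with citrus (exact permutation p = 0.0286 each, the smallest that 4 against 4 arrays can give, n = 4). Neuronal RNA was found in both gates: of 15 markers of mature olfactory sensory neurons, 14 were above background on all arrays of every group. That does not show the GFP- cells to be neurons alone. Of 14 myeloid and lymphoid markers, 9 were above background on all vehicle GFP- arrays and 11 on all citrus GFP- arrays. Here background is the 95th percentile of an array's 5222 negative-control probes, which lay between 8.75 and 9.71. Of the 82 members, 63 were above background on all 16 arrays, 12 were under it on all 16 and 7 were in between.

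In vehicle mice, mRNA of most subunits was more abundant in GFP+ than in GFP- cells. The median difference over the 82 members was 0.55 on the log2 scale (1.46-fold), against 0.11 over all tested probe sets. By the limma fit, 44 members (53.7%) were higher in GFP+ cells at an adjusted p under 0.05, where 9.05% of all tested probe sets were. Cox6b2 was the 1 member that was lower, against 9.97% of all probe sets, and 37 members did not pass. A positive difference was found in 77 of 82 members and in 62.2% of all probe sets. For 37 members (45.1%) all 4 GFP+ arrays lay above all 4 GFP- arrays, which held for 10.9% of all probe sets.

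The size of the difference depended on how arrays were scaled. With each array centred on its median of tested probe sets, on mature neuron markers or on the odorant receptor median, the all-gene median moved from 0.11 to 0.39, -0.18 and -0.35. The member median stayed positive in vehicle, at 0.83, 0.26 and 0.09, but 75, 4 and 0 members were then called higher, where 36.2%, 2.83% and 1.98% of all probe sets were. These centrings move all genes alike, so they leave the excess of the member median over the all-gene median at 0.44 by construction. Quantile normalization, which can change it, gave 0.36. The count of 44 also fell to 14 without pool 2, where 4.74% of all probe sets passed, and to 26 without pool 3, where 6.41% did. The gate calls of 12 members held without each of the 4 vehicle pools in turn: Ndufa13, Ndufb5, Ndufv1, Ndufv3, Sdha, Sdhb, Sdhd, Uqcrc1, Uqcrc2, Atp5c1, Atp5j and Atp5o.

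The difference was present in each pool. A GFP+ and a GFP- array that share a pool number were treated as coming from the same mice. Within vehicle pools 1 to 4, the member median difference was 0.44, 0.74, 0.45 and 0.44, while the all-gene median was 0.10, 0.09, 0.06 and 0.12. Between 73 and 79 of the 82 members were higher in the GFP+ array of a pool. The share of all probe sets higher within a single pool was not counted. Over the pools 77 of 82 member differences were positive, as were 62.2% of all. After each member's mean over all arrays was removed, the median member deviation ran from -0.44 to -0.12 on vehicle GFP- arrays and from 0.02 to 0.47 on vehicle GFP+ arrays. The groups did not overlap, and pool 4 had the lowest array in both.

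**Figure D1:**
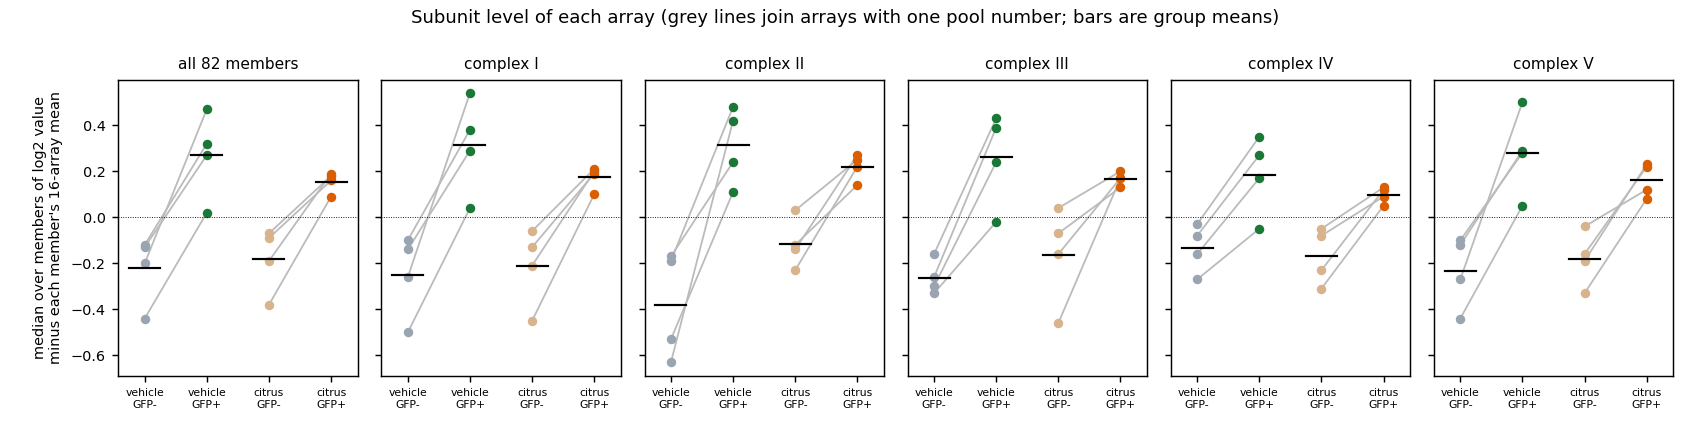
Median deviation of the subunits on each of the 16 arrays, over all 82 members and for each complex; the y axis is the log2 value minus that gene's mean over the 16 arrays, grey lines join arrays with one pool number and bars are group means. Over all members, vehicle GFP+ arrays sit between 0.02 and 0.47 and vehicle GFP- arrays between -0.44 and -0.12. Centring on the odorant receptor median would turn the citrus gate difference to a median of -0.39, and that of all probe sets to -0.63.

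Markers of other cell types moved with the gate. Of all probe sets, 9.05% were called higher and 9.97% lower in vehicle, and 7.44% and 10.8% in citrus. All 14 measured myeloid and lymphoid markers were lower in GFP+ cells, in vehicle (median -6.56) and in citrus (median -6.90). With values under background raised to each array's background these medians were -1.99 and -2.69. Their summed level, as log2 of the sum, was 19.25 to 20.12 on vehicle GFP- and 9.78 to 11.42 on vehicle GFP+ arrays, and 18.69 to 20.04 and 10.03 to 10.64 in citrus. No value was 0, and 11 of these 14 genes were under background on all vehicle GFP+ arrays and 13 on all citrus GFP+ arrays. Microvillous cell markers were lower in 11 of 12 in vehicle and 12 of 12 in citrus, and immature neuron markers in 6 of 12 in each. Globose basal and cycling cell markers were lower in 6 of 6 in both stimuli. Of these markers, 7 of 12 microvillous and 5 of 6 basal and cycling ones were under background on all arrays. As fitted, the medians of immature, microvillous and basal and cycling markers were -0.59, -2.94 and -1.72 in vehicle. In citrus they were -0.50, -3.18 and -2.34. With values raised to background, these medians were -0.18, 0.07 and 0.07 in vehicle, and -0.18, 0.02 and 0.02 in citrus. Most microvillous and basal and cycling markers were so raised on all arrays. Their raised medians therefore give the difference in background between the gates and not in these markers. Summed levels on vehicle GFP- and GFP+ arrays were 16.76 to 17.16 and 16.86 to 17.07 for immature markers. They were 12.21 to 15.59 and 10.75 to 11.29 for microvillous ones, and 10.01 to 11.60 and 7.09 to 7.41 for basal and cycling ones. Mature neuron markers, summed, were at 21.36 to 21.59 on vehicle GFP- and 21.57 to 21.72 on vehicle GFP+ arrays, with 3 of 15 higher and a median difference of 0.27. In citrus these sums were 21.30 to 21.58 and 21.60 to 21.73, with 4 of 15 higher and a median of 0.39. The subunit medians beside these were 0.55 in vehicle and 0.37 in citrus. Ciliated cell markers were higher in 4 of 7 in vehicle and 2 of 7 in citrus. The part of these cells in the subunit differences was not tested, and in sorted bulk RNA fewer cells of a type and less RNA per cell cannot be told apart.

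Among complex I members, 23 of 35 were higher in vehicle GFP+ cells, with a median of 0.59, and all 35 differences were positive. The shares over all probe sets were 9.05% called higher and 62.2% positive. The 6 core subunits in the list, which belong to the conserved arm that takes electrons from NADH to quinone, were all higher, by 0.43 to 0.71. The accessory subunits, which surround the core, were higher in 17 of 29, also with a median of 0.59. Ndufa5, an accessory subunit of the peripheral arm, stood at 11.40, 11.60, 11.18 and 10.83 on GFP- arrays and at 12.22, 12.66, 12.09 and 11.44 on GFP+ arrays. Each GFP+ array was above the GFP- array of its pool although the groups overlapped, and the difference was 0.85 ± 0.26 (limma, adjusted p = 0.0257). That call was lost without pool 1, 2 or 3, at 0.86, 0.79 and 0.83.

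Ndufb6, an accessory subunit of the membrane arm, read 10.76, 10.38, 11.00 and 10.67 in GFP- cells and 11.73, 11.83, 11.67 and 10.96 in GFP+ cells. Pool 4 gave the low GFP+ value, and the groups overlapped there alone; the difference was 0.84 ± 0.20 (limma, adjusted p = 0.00653), and 0.64 and no longer past the threshold without pool 2. Ndufv3, an accessory subunit of the NADH-oxidising module, was above background on 14 of 16 arrays. It read 9.60, 9.29, 9.14 and 9.07 in GFP- and 10.16, 10.14, 9.95 and 9.81 in GFP+ cells. These groups did not overlap, and the difference of 0.74 ± 0.15 passed (limma, adjusted p = 0.00195). Ndufb2, above background on 6 of 16 arrays, and Ndufs6, an accessory subunit with a zinc site, differed by 0.83 ± 0.21 and 0.75 ± 0.20. At the other end, Ndufa6, named after its values were seen, differed by 0.11.

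Complex II is succinate dehydrogenase, which also takes part in the tricarboxylic acid cycle. In vehicle, 3 of its 4 subunits were called higher, where 9.05% of all probe sets were. Sdha, the flavoprotein with the catalytic site, read 10.74, 10.18, 10.61 and 10.40 on vehicle GFP- arrays and 11.59, 11.70, 11.24 and 11.09 on GFP+ arrays. No GFP- array reached the lowest GFP+ array, and the difference of 0.92 ± 0.18 (1.90-fold, limma adjusted p = 0.00108) was the largest among the members. Sdhd, a membrane anchor, read 11.62, 11.11, 11.71 and 11.37 in GFP- and 12.33, 12.37, 12.16 and 12.21 in GFP+ cells. Again the groups were apart, with a difference of 0.81 ± 0.14 (1.76-fold, limma adjusted p = 4.1e-04). Sdhb, the iron-sulfur subunit, differed by 0.65 ± 0.15 (limma, adjusted p = 0.00570). Sdhc, the other anchor, overlapped between the gates and did not pass, at 0.28 ± 0.18 with an interval of -0.09 to 0.65.

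In complex III 4 of 8 members were called higher in vehicle (median 0.52), where 9.05% of all probe sets were. Uqcrc2, a core protein of the complex, read 10.17, 9.37, 9.72 and 9.42 in vehicle GFP- and 10.73, 10.59, 10.58 and 10.38 in GFP+ cells. The groups did not overlap and differed by 0.90 ± 0.18 (1.86-fold, limma adjusted p = 0.00129). Uqcrc1, the other core protein, differed by 0.59 ± 0.15, and Uqcrfs1, the Rieske iron-sulfur protein, by 0.45 ± 0.15 (limma, adjusted p = 0.0119 and 0.0419); the latter was lost without pool 2, 3 or 4, at 0.42 in each. Uqcr11 was also called, at 0.71, but lay under background on all 16 arrays, so no fold is given, and its call was lost without pool 1, 2 or 3 (0.62, 0.60 and 0.72).

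**Figure D2:**
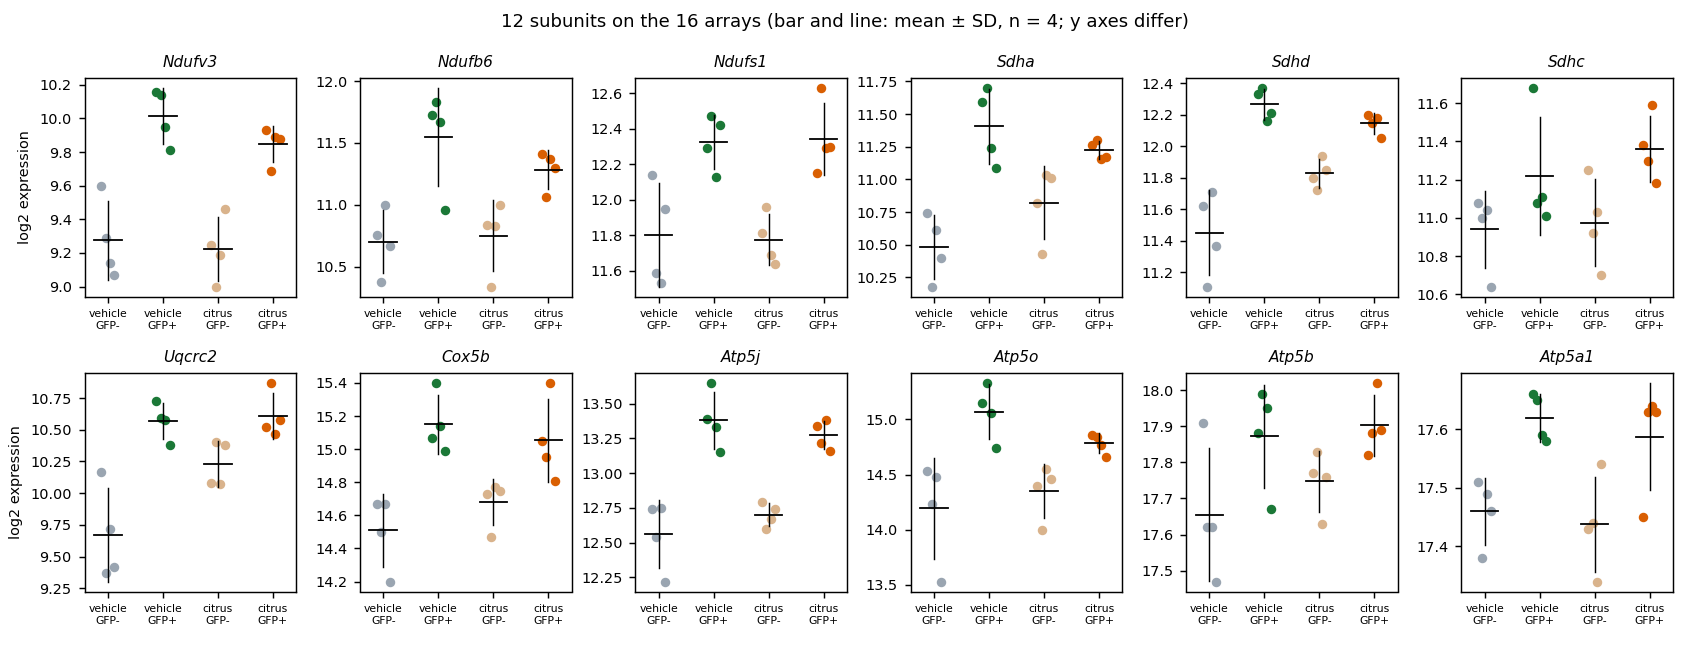
Log2 expression of 12 subunits on each array by group, with the mean and SD of 4 arrays; the y axes differ and do not start at 0. In vehicle, the GFP+ and GFP- arrays of Ndufv3, Sdha, Sdhd, Uqcrc2, Cox5b, Atp5j, Atp5o and Atp5a1 do not overlap. Those of Ndufb6, Ndufs1, Sdhc and Atp5b do.

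In cytochrome c oxidase the widely expressed subunits and the isoforms of restricted tissues were set side by side. Of its 10 widely expressed subunits 4 were higher in vehicle GFP+ cells (median 0.49). Among its 7 isoforms of restricted tissues 0 were higher and 1 was lower (median -0.10). The shares over all probe sets were 9.05% called higher and 9.97% lower. By an unadjusted limma p under 0.05, 1 of these 7 was higher and 2 lower (17.8% and 13.5% of all probe sets). In citrus the median was 0.33 with 0 of 10 called for the former, and 0.37 with 1 of 7 higher and 1 lower for the latter (unadjusted limma p under 0.05: 4 of 10 and 4 of 7 higher). Of all probe sets in citrus, 7.44% were called higher and 10.8% lower, and 17.0% were higher unadjusted. The difference between these 2 groups of subunits was not tested. Cox5b, which lies on the matrix side, read 14.67, 14.50, 14.67 and 14.20 in GFP- and 15.07, 15.40, 15.14 and 14.99 in GFP+ cells. The arrays were apart, with a difference of 0.64 ± 0.16 (1.56-fold, limma adjusted p = 0.00923), which fell to 0.55 and below the threshold without pool 2. Cox7b differed by 0.69 ± 0.19 and Cox7a2 by 0.58 ± 0.19 (limma, adjusted p = 0.0157 and 0.0392); Cox7b was lost without pool 2 or 3 (0.59 and 0.58), and Cox7a2 without pool 1, 2 or 3 (0.53, 0.48 and 0.58). Cox4i1, Cox6a1, Cox6b1 and Cox8a had positive differences of 0.48, 0.28, 0.53 and 0.23 that did not pass, although that of Cox6b1 passed without pool 4, at 0.66. Cox7a2l differed by 0.23 in vehicle and by -0.19 in citrus, neither past the threshold.

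All 7 restricted isoforms were under background on all 16 arrays, so their levels cannot be told from background and no folds are given. The testis isoform Cox6b2 read 4.03, 4.35, 4.06 and 5.34 in vehicle GFP- and 3.82, 3.71, 2.67 and 2.96 in vehicle GFP+ cells. In citrus it read 4.77, 4.91, 5.41 and 4.83 in GFP- and 3.16, 3.39, 3.52 and 3.85 in GFP+ cells. Neither pair of groups overlapped, with GFP+ cells below, as in 9.96% of all probe sets in vehicle and 11.0% in citrus, and the differences were -1.16 ± 0.30 and -1.50 ± 0.30 (limma, adjusted p = 0.00994 and 0.00112). Without vehicle pool 4, which held the highest vehicle reading of 5.34, the vehicle difference was -0.75 and did not pass. The muscle isoform Cox7a1 read 6.59, 6.05, 6.69 and 5.61 in citrus GFP- and 6.97, 7.53, 7.50 and 6.82 in citrus GFP+ cells, a difference of 0.97 ± 0.23 (limma, adjusted p = 0.00522); it was 0.80 and did not pass without citrus pool 2. Cox4i2, Cox6a2, Cox7b2, Cox8b and Cox8c passed in neither gate comparison, though Cox8b passed in vehicle without pool 1, at -0.96.

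**Figure D3:**
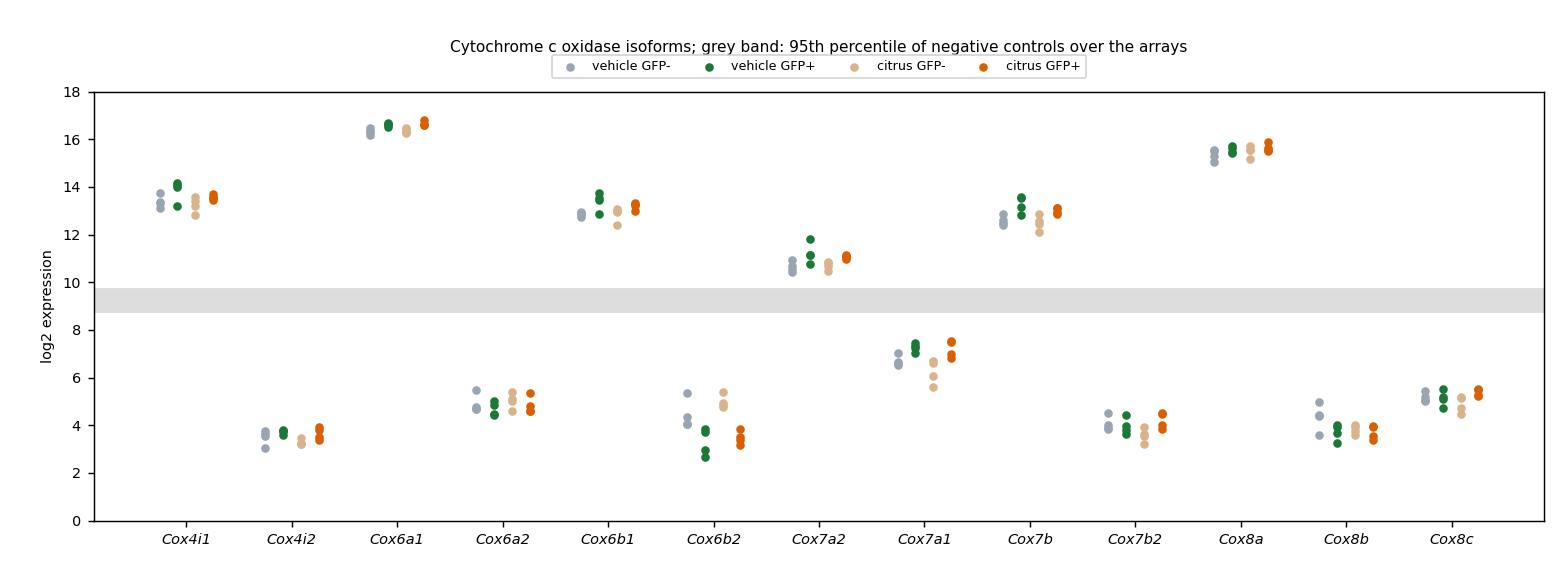
Log2 expression of 13 cytochrome c oxidase subunits, set out as isoform groups, on the 16 arrays; the grey band spans the 95th percentile of negative-control probes over the arrays (8.75 to 9.71). Cox4i1, Cox6a1, Cox6b1, Cox7a2, Cox7b and Cox8a lie above the band on every array, and Cox4i2, Cox6a2, Cox6b2, Cox7a1, Cox7b2, Cox8b and Cox8c below it.

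Of the ATP synthase members 10 of 17 were higher in vehicle GFP+ cells (median 0.49), and all 17 differences were positive. The shares over all probe sets were 9.05% called higher and 62.2% positive. Atp5o, the stalk subunit known as OSCP, read 14.53, 14.23, 14.48 and 13.53 in GFP- and 15.15, 15.33, 15.06 and 14.74 in GFP+ cells. The arrays were apart, pool 4 was lowest in both gates, and the difference was 0.88 ± 0.20 (1.84-fold, limma adjusted p = 0.00492). Atp5j, coupling factor 6 of the stalk, read 12.74, 12.54, 12.75 and 12.22 in GFP- and 13.39, 13.65, 13.33 and 13.15 in GFP+ cells. It differed by 0.81 ± 0.15 (1.76-fold, limma adjusted p = 7.3e-04). Atp5md, a small membrane subunit, differed by 0.79 ± 0.21 (limma, adjusted p = 0.0138), but by 0.61 and below the threshold without pool 2. Atp5e, the epsilon subunit of the central stalk, differed by 0.75 at levels under background on all arrays, and its call was lost without pool 2, at 0.54.

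The 2 subunits that form the catalytic hexamer were at the other end. Atp5a1, the alpha subunit, read 17.51, 17.38, 17.49 and 17.46 in vehicle GFP- and 17.66, 17.65, 17.59 and 17.58 in GFP+ cells, a difference of 0.16 ± 0.12. Its groups did not overlap, with GFP+ cells above, as in 10.9% of all probe sets. Atp5b, the beta subunit, read 17.91, 17.62, 17.62 and 17.47 in GFP- and 17.88, 17.99, 17.95 and 17.67 in GFP+ cells, a difference of 0.22 ± 0.13. Neither passed (limma, adjusted p = 0.383 and 0.280), and the intervals, -0.09 to 0.40 and -0.06 to 0.50, end below the member median of 0.55. Both were named after their values were seen, as was Atp5g2, a c-ring subunit, at 0.08 ± 0.17. The 3 c-ring genes had a median of 0.20, with Atp5g3 called at 0.49 ± 0.13. The 5 small membrane subunits had a median of 0.63, with 4 called, where 9.05% of all probe sets were called higher.

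The median difference was smallest for the brightest members. Members with a mean above 14 had a median vehicle difference of 0.39 (22 members, 8 called), against 0.14 over all 601 probe sets of that level, of which 12.6% were called higher. Those between 12 and 14 had 0.53 (24 members, 17 called) against 0.15 over all, with 17.2% of all called. Those from the mean background of 9.13 to 12 had 0.63 (21 members, 14 called) against 0.17 and 14.3%, and those below had 0.59 (15 members, 5 called) against 0.09 and 6.81%. The member medians stood above probe sets of like signal in all 4 ranges. Atp5a1 and Atp5b were in the brightest range, and the part of signal level in their values was not tested.

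**Figure D4:**
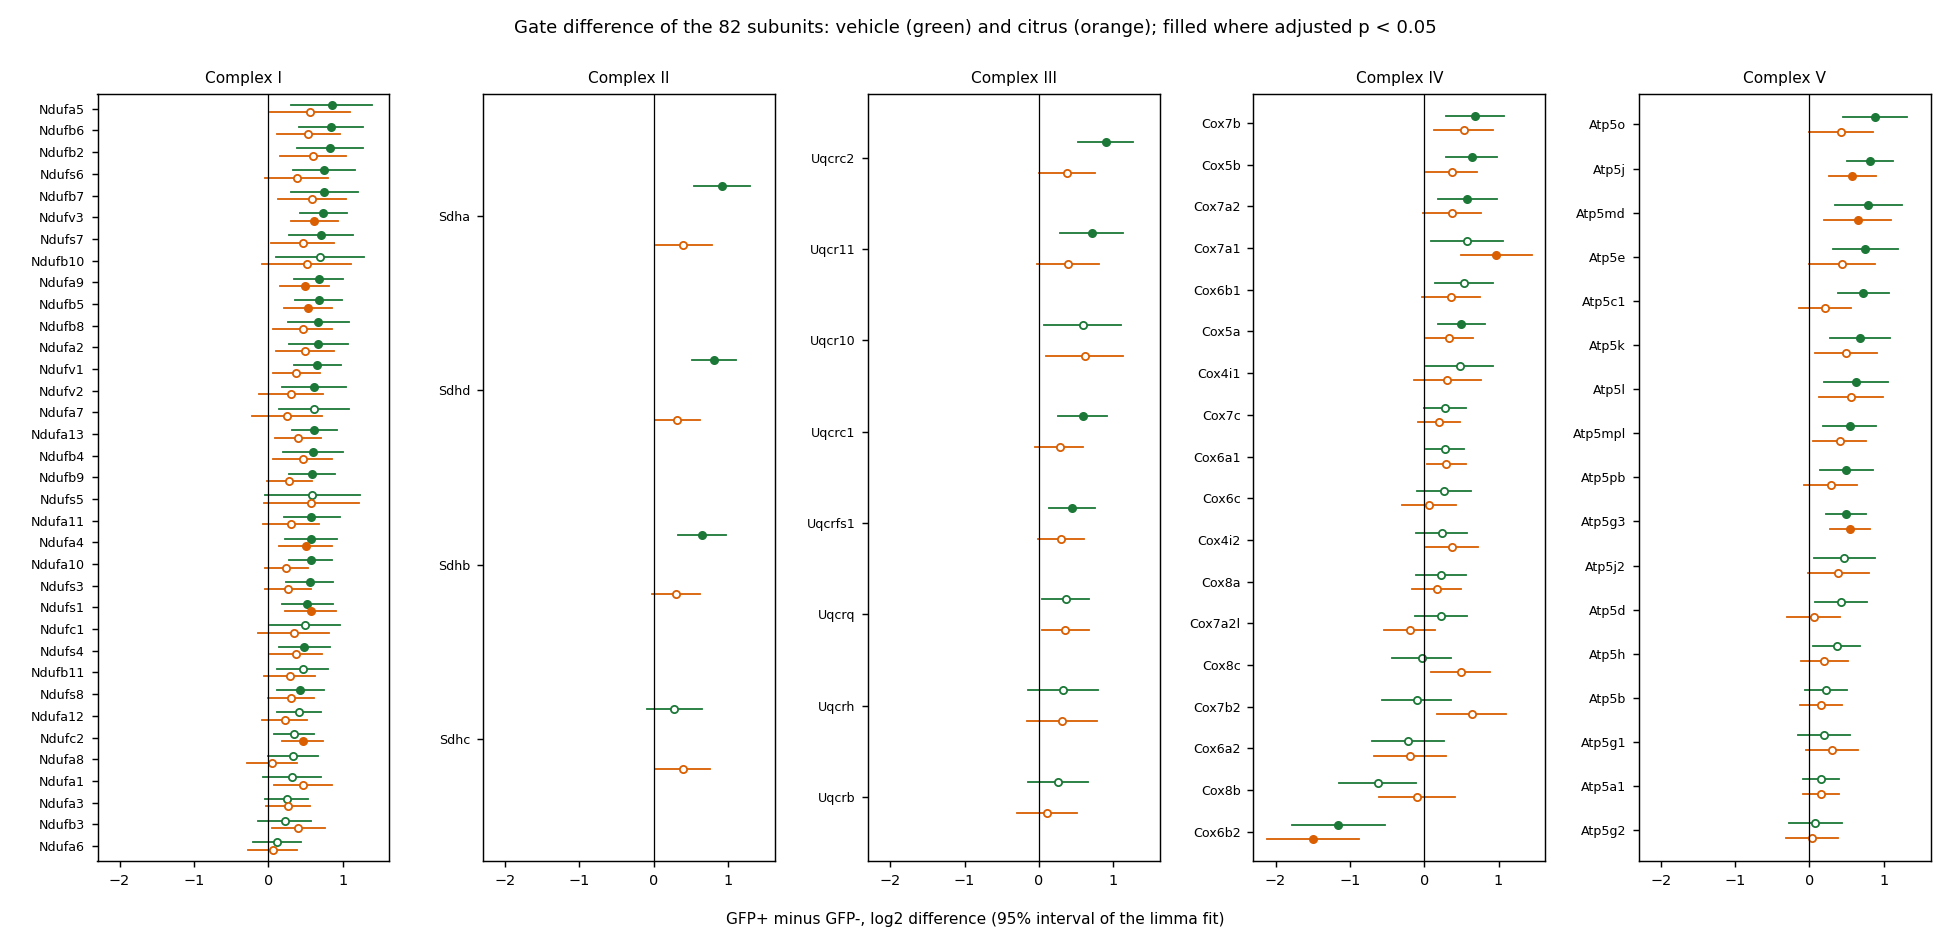
GFP+ minus GFP- log2 difference of each of the 82 subunits by complex, in vehicle (green) and citrus (orange), with 95% intervals from the limma fit and filled points where the adjusted p is under 0.05. In vehicle 44 points are filled to the right of 0 and Cox6b2 to its left, and in citrus 10 and Cox6b2. With arrays centred on the odorant receptor median, the citrus member median is -0.39 instead of 0.37. The citrus median of all probe sets is then -0.63, and 0 members are called higher in either stimulus.

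Promoter sequence was set beside these values, since nuclear respiratory factor 1 (NRF1) is known as a regulator of many respiratory chain genes. RefSeq promoter entries (build GRCm38.p6) were found for 68 of 82 members and for 15691 tested genes. The NRF1 motif (GCGCA, any base, then GCGC), searched on both strands in the 250 bases before the start, was found in 12 of 68 members (17.6%) and in 5.63% of all genes with an entry. It was found in 7 of 39 members called higher in vehicle (17.9%) and in 5 of 29 others (17.2%). The windows below belong to members called higher in vehicle and to members not called, and do not cover all 12 with the motif. Capitals mark the motif, and each window runs 5′ to 3′ on the strand of the gene.
Ndufa5: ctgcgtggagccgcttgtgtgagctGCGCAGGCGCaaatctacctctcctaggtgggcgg
Ndufs6: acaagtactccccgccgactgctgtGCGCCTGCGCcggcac
Sdha: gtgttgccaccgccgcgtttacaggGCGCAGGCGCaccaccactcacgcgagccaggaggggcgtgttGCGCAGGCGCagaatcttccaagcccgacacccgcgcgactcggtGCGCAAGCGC
Sdhd: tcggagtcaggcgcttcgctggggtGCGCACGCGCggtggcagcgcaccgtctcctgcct
Atp5k: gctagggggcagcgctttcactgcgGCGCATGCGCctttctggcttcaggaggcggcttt
Cox6a1: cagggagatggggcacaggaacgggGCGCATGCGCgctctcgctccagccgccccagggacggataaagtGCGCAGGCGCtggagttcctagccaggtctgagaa
Atp5h: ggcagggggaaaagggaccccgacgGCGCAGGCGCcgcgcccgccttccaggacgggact
Atp5g2: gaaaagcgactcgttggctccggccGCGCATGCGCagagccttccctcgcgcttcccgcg
The first 5 genes were called higher in vehicle GFP+ cells, Atp5k among them at levels under background on all arrays, and the last 3 were not. Sdha lies on the minus strand, and its window (chr13:74350241-74350363) holds 3 matches, the last ending 1 base before the start. The windows of Ndufa5 (chr6:24527682-24527741), Ndufs6 (chr13:73328483-73328523), Sdhd (chr9:50603894-50603953), Atp5k (chr5:108434415-108434474), Cox6a1 (chr5:115349041-115349145), Atp5h (chr11:115420026-115420085) and Atp5g2 (chr15:102671055-102671114) are likewise minus-strand. A match is a run of letters and not a shown binding site. The shares of members and of all genes were 16.2% and 9.42% for CCGGAAG (ETS factors), 7.35% and 3.51% for AAGGTCA (oestrogen-related receptors), and 1.47% and 1.4% for AANATGGCG (YY1), each searched on both strands in the same window.

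In citrus-stimulated mice the same gate comparison gave a smaller member median. The change in gate difference between the stimuli passed the threshold for 0 members, as for 0% of all probe sets. The member median was 0.37 (1.29-fold) against 0.13 over all probe sets, and it turned to -0.39 when arrays were centred on the odorant receptor median, a scaling that moved the all-gene median to -0.63. The 15 mature neuron markers had a median of 0.39 in citrus as deposited. The members exceeded the all-gene median by 0.24 as deposited, which the centrings cannot change, and by 0.18 after quantile normalization. By the limma fit 10 members (12.2%) were higher in GFP+ cells, where 7.44% of all probe sets were, and Cox6b2 was lower, where 10.8% were. Arrays did not overlap for 33 members (40.2%, against 11.7% of all probe sets). With the pool as a block 19 members were higher, where 9.52% of all probe sets were. The count was 2 without pool 2 and 4 without pool 3 or pool 4, where 5.13%, 4.81% and 4.31% of all probe sets passed.

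The 10 were Ndufv3, Ndufs1, Ndufb5, Ndufa4, Ndufa9 and Ndufc2 of complex I, Cox7a1 of complex IV, and Atp5md, Atp5j and Atp5g3 of complex V. Complexes II and III had 0 members called, with 3 of 4 and 3 of 8 higher at an unadjusted limma p under 0.05, as were 17.0% of all probe sets. Ndufv3 read 9.25, 9.0, 9.19 and 9.46 in citrus GFP- and 9.93, 9.69, 9.89 and 9.88 in citrus GFP+ cells, apart by 0.62 ± 0.15 (1.54-fold, limma adjusted p = 0.00681). Atp5g3, a c-ring gene, read 13.27, 13.29, 13.42 and 13.46 in GFP- and 13.77, 13.87, 14.04 and 13.91 in GFP+ cells. These groups were also apart, by 0.54 ± 0.13 (1.45-fold, limma adjusted p = 0.00578). Those 2 and Cox6b2 kept their call without each citrus pool in turn, out of 11 called. Ndufs1, the largest core subunit of complex I, differed by 0.57 ± 0.16 in citrus and 0.52 ± 0.16 in vehicle.

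Of the 44 members called in vehicle and the 10 called in citrus, 8 were shared, which is 18.2% of the former and 80.0% of the latter. Over all tested genes, 835 calls were shared, 47.1% of the vehicle and 57.3% of the citrus calls. Within citrus pools 1 to 4 the member median difference was 0.36, 0.48, 0.28 and 0.25, and 71 to 77 of 82 members were higher in the GFP+ array; over the pools 78 of 82 differences were positive, as were 65.4% of all. Array deviations ran from -0.38 to -0.07 in citrus GFP- and from 0.09 to 0.19 in citrus GFP+ cells, again without overlap. The vehicle GFP+ arrays spanned a wider range, 0.02 to 0.47.

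No member passed the threshold for citrus against vehicle in either gate. In GFP+ cells 0 members were higher and 0 lower, against 0.0204% and 0% of all probe sets (unadjusted limma p under 0.05: 0 higher and 1 lower, against 2.06% and 1.99%). The median difference was -0.14, positive in 16 of 82 members and in 51.4% of all probe sets. Ndufb4, an accessory complex I subunit with the smallest p, read 15.23, 15.20, 15.13 and 14.68 in vehicle GFP+ and 14.60, 14.36, 14.73 and 14.70 in citrus GFP+ cells. The arrays overlapped by 1 vehicle array, and the difference was -0.46 ± 0.19 (limma, adjusted p = 0.999). Ndufb9 and Ndufs6 came next, at -0.29 ± 0.15 and -0.37 ± 0.20. In GFP- cells 0 were higher and 0 lower, against 0.0102% and 0.00511% (unadjusted limma p under 0.05: 4 higher and 2 lower, against 2.97% and 2.91%), with a median of 0.01. Uqcrc2 read 9.37 to 10.17 in vehicle GFP- and 10.08, 10.40, 10.07 and 10.38 in citrus GFP- cells, a difference of 0.56 ± 0.18 with an interval of 0.19 to 0.93 (limma, adjusted p = 0.808). Sdhd and Atp5d followed at 0.38 ± 0.14 and 0.40 ± 0.17 (limma, adjusted p = 0.824 and 0.829).

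The difference between the gate differences, citrus minus vehicle, was past the threshold for 0 members, as for 0% of all probe sets in either direction (unadjusted limma p under 0.05: 1 member higher and 2 lower, against 1.92% and 1.77%). Its median over members was -0.16, against -0.01 over all probe sets, and 66 of 82 members had the smaller gate difference in citrus, a sign found in 51.1% of all probe sets. Sdhd had the smallest p, with gate differences of 0.81 in vehicle and 0.32 in citrus and a change of -0.50 ± 0.20 (interval -0.92 to -0.08, limma adjusted p = 0.999). Atp5c1, the gamma subunit of the central stalk, went from 0.72 to 0.21, a change of -0.51 ± 0.23. Cox7b2, a testis isoform under background on all arrays, had a change of 0.74 ± 0.31. For no member did the test show a gate difference that differed between the stimuli.

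Genes around the respiratory chain were compared in the same fit. Of all tested probe sets, 9.05% were called higher and 9.97% lower in vehicle, and 7.44% and 10.8% in citrus. Of 16 listed genes of the complexes that the naming rule leaves out, 5 were measured. Among these, Ndufab1, the acyl carrier protein of complex I, was higher by 0.56 ± 0.16 in vehicle and 0.59 ± 0.16 in citrus. Atpif1, an inhibitor of the ATP synthase, was higher by 0.56 ± 0.19 in vehicle, and Cyc1, the cytochrome c1 of complex III, by 0.67 ± 0.16 in citrus. Of 42 assembly factors 8 were higher in vehicle and 5 in citrus, and 0 were lower in either (medians 0.38 and 0.25). Among them Ndufaf2, a complex I factor under background on all arrays, differed by 0.92 ± 0.21 in vehicle. Uqcc1, a complex III factor above background on 1 of 16 arrays, differed by 0.72 ± 0.15 in vehicle and 0.79 ± 0.15 in citrus. Of 16 tricarboxylic acid cycle genes 6 were higher in vehicle and 1 in citrus, with 0 lower. Idh3b and Idh3a, subunits of the NAD-dependent isocitrate dehydrogenase, differed by 0.79 ± 0.18 and 0.70 ± 0.15 in vehicle, and Pdhb of pyruvate dehydrogenase by 0.67 ± 0.14.

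Of 14 regulators of mitochondrial biogenesis 1 was higher in vehicle and 2 in citrus, where 9.05% and 7.44% of all probe sets were. Sirt3, a mitochondrial deacetylase, differed by 0.50 ± 0.13 in vehicle. Ppargc1a, a transcriptional coactivator, differed by 0.92 ± 0.22 in citrus and by 0.27 ± 0.22 in vehicle, and its call was lost without citrus pool 4, at 0.73. Tfam, which packages mitochondrial DNA, differed by 0.61 ± 0.20 in citrus at levels under background on all arrays. Of 16 carriers and phosphate shuttles 4 were higher in vehicle, and 3 were higher and 1 lower in citrus, where 10.8% of all probe sets were lower. Ckmt1, the mitochondrial creatine kinase, differed by 1.11 ± 0.19 and 0.75 ± 0.19, and Ckb, the cytosolic one, by 0.68 ± 0.16 and 0.58 ± 0.16.

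Glycolysis genes moved in both directions: of 16, 6 were higher and 3 lower in vehicle, and 2 higher and 4 lower in citrus. Of all probe sets, 9.05% were higher and 9.97% lower in vehicle, and 7.44% and 10.8% in citrus. Eno2, the neuronal enolase, differed by 1.08 ± 0.21 and 1.27 ± 0.21 at levels under background on all arrays. Ldha, lactate dehydrogenase A, read 10.78, 10.42, 10.90 and 11.46 in vehicle GFP- and 7.33, 8.10, 7.90 and 7.47 in vehicle GFP+ cells, and it was called lower in both stimuli (limma, adjusted p = 7.3e-07 and 1.2e-07). It was under background on all GFP+ arrays, so the fitted differences of -3.19 ± 0.31 and -3.64 ± 0.31 give only a bound. Against each array's background, on the deposited scale, it was at least 2.92-fold lower in vehicle and at least 4.28-fold lower in citrus. That scale can be stretched by the processing, so these folds do not bound the amount of RNA. The mean GFP+ background was 9.35 in vehicle and 8.96 in citrus, so the bounds do not compare the stimuli. Hk3, a hexokinase of blood cells, was also called lower in both, at -1.34 ± 0.19 and -1.30 ± 0.19, at levels under background on all arrays. The myeloid and lymphoid markers above moved in the same direction as Ldha and Hk3, and their part in these values was not tested.

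**Figure D5:**
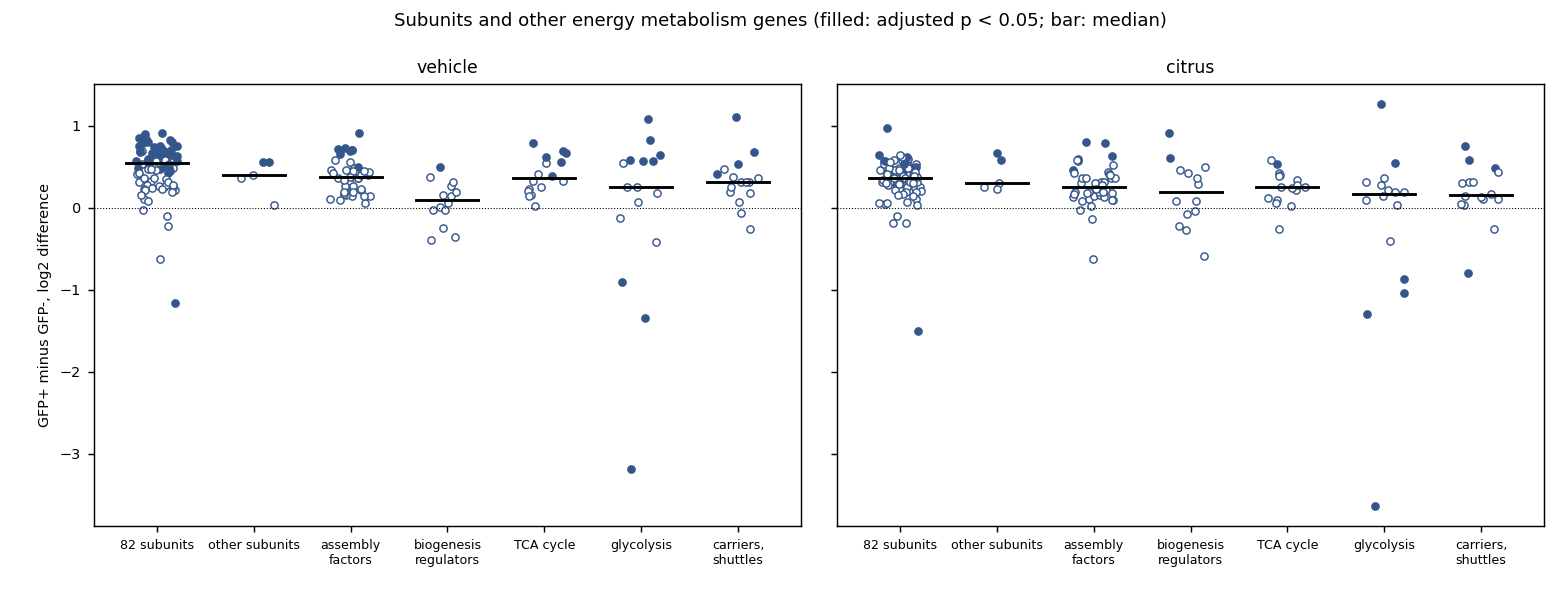
GFP+ minus GFP- log2 differences in vehicle and in citrus of the 82 subunits and of 6 lists of related genes; each point is a gene, filled where the limma adjusted p is under 0.05, and bars are medians. The subunit bar stands at 0.55 in vehicle and 0.37 in citrus. With arrays centred on the odorant receptor median the latter turns to -0.39, and the citrus median of all probe sets to -0.63. Ldha, under background on all GFP+ arrays, is the lowest point in both panels at -3.19 and -3.64.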

How the data were processed

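The authors deposited 1 table of log2 values for 28846 probe sets, which the submitters' processing notes credit to Affymetrix Expression Console. An array label names SST-RMA, a transformation that can stretch the log2 scale. The build and the program version were not given in the sources used here. Values were used as deposited; 6640 control probes and 2634 probe sets without a symbol were left out, and all 82 members were matched by Entrez identifier, which changed 0 symbols. Array columns were matched by label, and groups came from the labels.

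Limma 3.58.1 in R 4.3.3 fitted 1 mean per group over all 16 arrays (two-sided, empirical Bayes). The Benjamini-Hochberg adjustment ran over 19572 probe sets with a threshold of 0.05, for 5 comparisons. Errors after ± beside differences are standard errors, and intervals are 95%. Arrays give no read depth: the 4 arrays per group set the precision. The code was tested on simulated data. Figures used matplotlib 3.10.9 in Python 3.11.15.

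The members and lists were chosen with earlier results of these data known. Named genes were the 4 largest calls per complex and gate comparison, calls in the rarer direction, the 3 smallest p where fewer than 3 passed, the isoform sets and complex II, the 3 largest calls per other list, S100a5 and Omp. Others were named after their values were seen, among them Ndufv1, Ndufa13, Ndufa9 and Ndufc2. S100a5 was also compared by exact permutation; Omp, a mature neuron marker, differed by 0.27 and 0.18 (exact permutation p = 0.0286 and 0.114). The 24 mice make 8 pools of 3, so GFP+ and GFP- arrays with one number were taken as one pool, which the labels do not state outright; such arrays, less group means, correlated at 0.075 to 0.275. Sustentacular markers were lower in 2 of 11 genes in vehicle and 3 in citrus, and erythroid markers in 2 of 2 in both. Of all probe sets 9.97% were lower in vehicle and 10.8% in citrus. Alternatives changed scaling, filter, prior, array weights, block, probe sets, member rule and pools.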

Additional observations from a re-analysis of the deposited data

Results flagged for a closer look

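Among the members named and the member median, 168 groups of 4 arrays were looked at, and in 8 of them 1 array lay far from the other 3. Chance gives about 1 in 20 such groups.

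Pool 2 of citrus held 3 of these arrays, all low. Atp5e was at 7.24 on its GFP+ array, against 8.06 to 8.10 on the others. Atp5md was at 13.37 on its GFP- array, against 14.09 to 14.12, and Cox5b at 14.47 on the same array, against 14.73 to 14.77. In the other citrus pools, Ndufb2 was at 9.16 on the GFP+ array of pool 4, against 9.30 to 9.32, and Uqcrc1 was high at 13.30 on the GFP+ array of pool 3, against 13.09 to 13.12.

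In vehicle, the GFP- array of pool 4 was high for Cox6a2, at 5.46 against 4.69 to 4.78, and low for Ndufb7, at 9.08 against 9.50 to 9.54. Sdhc was high on the GFP+ array of pool 1, at 11.68 against 11.01 to 11.11. Cox6a2 and Atp5e lay under background on all arrays.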

How the results depend on the processing

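Scaling had the largest reach: with arrays centred on the median of tested probe sets, on mature neuron markers and on the odorant receptor median, members higher numbered 75, 4 and 0 in vehicle (36.2%, 2.83% and 1.98% of all probe sets) and 73, 0 and 0 in citrus (46.6%, 2.73% and 2.03%), with medians of 0.83, 0.26 and 0.09, and of 0.70, 0.03 and -0.39. Members lower numbered 2 in vehicle under both of the last (15.4% and 18.7% of all), and 17 in citrus under receptor centring, where 55.3% of all were lower. Receptor centring also gave medians of -0.39 for citrus minus vehicle in GFP+ cells and -0.47 for the change in gate difference. It moved all gate differences alike, by -0.46 in vehicle and -0.76 in citrus, so positive members went from 77 to 51 and from 78 to 1. Among the genes chosen by the naming rule and called under either scaling, those that turned sign were Uqcrfs1 in vehicle (-0.01) and, in citrus, Ndufv3 (-0.14), Ndufs1 (-0.20), Ndufb5 (-0.23), Ndufa4 (-0.26), Atp5md (-0.12), Atp5j (-0.19), Atp5g3 (-0.23), Cox8a (-0.59), Cyc1 (-0.09), Ndufab1 (-0.17), Ndufaf1 (-0.13), Tfam (-0.15), Idh3a (-0.22), Ckmt1 (-0.01), Ckb (-0.19) and Omp (-0.58), whose differences were smaller than that shift. With the 2 groups compared alone in the fit, 29 members were higher in vehicle, against 6.17% of all; the cause was not tested. Members lower numbered 0 in both stimuli with a filter on dim probe sets, without restricted isoforms, or (added after the data were seen) with members above background on all arrays only, since each leaves out Cox6b2.

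The pool as a replicate block gave 19 members higher in citrus and 46 in vehicle (9.52% and 11.0% of all), and 0 called for the change in gate difference. The replicate number as a replicate block across stimuli, which is not taken as a pairing (correlations of -0.013 to 0.354), gave 0 members called in citrus minus vehicle in either gate. Without 1 pool, members higher ranged from 14 to 31 in vehicle and 2 to 7 in citrus (4.74% to 8.06% and 4.31% to 5.94% of all), and members lower from 0 to 2 and 1 to 1. The medians ranged from 0.46 to 0.56 and 0.31 to 0.38, from -0.22 to -0.06 for citrus in GFP+ cells, from -0.05 to 0.11 in GFP- cells and from -0.22 to -0.10 for the change in gate difference. Of 45 gate calls in vehicle 0 passed in every setting, and of 11 in citrus 1 did, Cox6b2. Reading the Nduf rule as the start of a symbol, also added later, takes in Ndufa4l2 and Ndufb4b and gave 45 and 10 members higher. The precision is limited by 4 arrays a group, and the 12 members under background on all arrays have no level that can be told from it.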
